A study of Arabidopsis thaliana with 16 samples.

Results

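The ethylene response of rhd6rsl1 roots of Arabidopsis thaliana was described from 4 of the 16 libraries of the series. The libraries were chosen by their labels: 2 of rhd6rsl1 roots exposed to ethylene and 2 of untreated rhd6rsl1 roots. All seedlings had grown upright on MS medium for 6 d, and treated seedlings then received 10 ppm ethylene (ET in the labels) for 4 h. Poly(A) RNA from whole roots was sequenced, so every root cell type was pooled in each library. rhd6rsl1 carries mutations of the root hair regulators RHD6 and RSL1 in all cells, in treated and untreated plants alike. For comparison the ein3eil1rhd6rsl1 mutant, called the quadruple mutant below, and the wild type Col-0 were used, each with 2 untreated and 2 treated libraries under the same conditions. The 4 ein3eil1 libraries entered only the shared estimate of spread and the check of file codes below. The sources used here do not name the alleles.

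Ethylene is perceived by receptors in the endoplasmic reticulum membrane, which in its absence activate the kinase CTR1. With ethylene CTR1 is released, EIN2 passes the signal on, and the transcription factors EIN3 and EIL1, otherwise degraded through the F-box proteins EBF1 and EBF2, accumulate and activate genes such as ERF1. Root hairs are tip-growing outgrowths of epidermal cells. RHD6 and RSL1 start their formation and act upstream of RSL2 and RSL4, relatives that drive hair growth, and plants without RHD6 and RSL1 are nearly hairless. The design crosses loss of EIN3 and EIL1 with loss of RHD6 and RSL1 to ask how both pairs serve the response of root hairs to ethylene.

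The 4 rhd6rsl1 libraries held 34.5 to 40.9 M reads assigned to genes. Levels are given as CPM, the read count of a locus relative to the depth of its library (scaled by the TMM method). Treated and untreated libraries also differ in a letter of their file codes, PR2Z for treated and PR2S for untreated, which the sources used here do not explain, so the letter and the treatment cannot be told apart in this genotype. The quadruple mutant has the letters in the same order and Col-0 and ein3eil1 in the opposite order. In ein3eil1, where treatment also coincides with the letter, 139 of 22304 loci (0.623%) passed the test for ethylene. In the quadruple mutant and Col-0, where it coincides too, 5323 (23.9%) and 6609 (29.6%) passed. How much of any of these counts came from the letter was not tested. Across all 16 libraries 347 loci (1.56%) had every S library above every Z library, or the reverse. These made up 26 (1.08%) of the 2414 loci that changed at least 2-fold in rhd6rsl1. The rule can miss loci that follow the letter within a genotype but also differ between genotypes or with ethylene. It therefore sets no upper limit on the part of the letter in these changes. Summed levels of 9 endodermis genes stood at 809 and 820 CPM in the untreated libraries and at 734 and 881 CPM in the treated ones. Summed levels of 16 photosynthesis genes, which mark shoot tissue, were 447 and 334 CPM untreated and 224 and 252 CPM with ethylene. The same sum reached 1680 CPM in replicate 1 of the treated quadruple mutant against 289 CPM in replicate 2, and 1070 CPM in replicate 1 of treated Col-0 against 244 CPM in replicate 2. The part of shoot tissue in the results was not tested.

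Ethylene changed 8817 of the 22304 loci tested in rhd6rsl1 (39.5%) at an adjusted p below 0.05 in edgeR's quasi-likelihood test, of which 4015 rose (18%) and 4802 fell (21.5%). With scaling by library totals alone the split was 4664 higher and 4192 lower. A change of at least 2-fold was called at 2414 loci (10.8%), 1048 higher (4.7%) and 1366 lower (6.12%). The median log2 fold change over all loci was -0.0092. Counts of rises and falls in gene lists below are to be read against the 18% and 21.5% of all loci. The lists were chosen with earlier results of these data known, so a share above these values is not a test of a list. CPM values below are those of replicates 1 and 2, and each change is a log2 fold change with its standard error after ±, from 2 libraries a group. CPM is not scaled to transcript length, so levels are compared between libraries and never between genes.

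The mutated genes were read first. RHD6 stood at 7.92 and 7.93 CPM untreated and at 14.8 and 15.6 CPM with ethylene. It rose by 0.94 ± 0.1 (adjusted p = 1.5e-06), whereas in Col-0 it went from 24.2 and 23.5 CPM to 14.2 and 15.7 CPM. Its treated levels in rhd6rsl1 and Col-0 therefore overlapped, and RHD6 does not tell the treated libraries of these genotypes apart. RSL1 was at 1.86 and 2 CPM untreated and at 1.75 and 1.24 CPM with ethylene, with treated Col-0 at 1.09 and 1.75 CPM. RSL2 did tell them apart, at 0.147 and 0.13 CPM in untreated rhd6rsl1, 0.0832 and 0.197 CPM in treated rhd6rsl1 and 9.99 and 9.28 CPM in treated Col-0. EIN3 was at 185 and 174 CPM untreated and 165 and 180 CPM treated, and EIL1 at 63.1 and 66.3 CPM untreated and 75.6 and 69.6 CPM treated. Neither passed the test, and in the treated quadruple mutant EIN3 was at 41.6 and 38.8 CPM. Reads from RHD6 or RSL1 do not show that a working product was made.

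Genes of the ethylene pathway changed in the rhd6rsl1 root. Of 17 genes of ethylene perception and signalling 9 rose and 2 fell, with a median log2 fold change of 0.65. Among the receptors ETR2 rose from 25.3 and 25.7 CPM to 108 and 118 CPM, a change of 2.15 ± 0.12 (adjusted p = 3.4e-10). ERS2 rose by 2.1 ± 0.12 and ERS1 by 1.35 ± 0.079. EIN4, another receptor, fell by 0.26, a call lost without untreated replicate 2 (adjusted p = 0.2), without either treated library and under 3 other settings, and the receptor gene ETR1, at 55 and 52.9 CPM untreated and 54.9 and 63.3 CPM treated, did not pass the test. RTE1, a regulator of ETR1, rose by 2.44 ± 0.13, and the kinase gene CTR1 rose from 101 and 103 CPM to 220 and 245 CPM. RAN1, the transporter that loads receptors with copper, fell by 0.48, a call lost without replicate 1 of the untreated (adjusted p = 0.068) or of the treated libraries (adjusted p = 0.069).

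Feedback genes of the pathway rose as well. EBF2 stood at 151 and 148 CPM untreated and 309 and 331 CPM treated, a rise of 1.09 ± 0.095 (adjusted p = 1e-07), and EBF1 rose by 0.65 ± 0.079. ARGOS, whose product lowers ethylene sensitivity and promotes organ growth, went from 2.44 and 2.85 CPM to 113 and 124 CPM, a rise of 5.48 ± 0.13. Its relative ARL rose by 3.98 ± 0.17, from 8.44 and 9.49 CPM to 146 and 136 CPM. In each of these genes both treated libraries lay above both untreated ones. The share of all loci without such overlap was not counted, so this describes these genes only.

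Ethylene-responsive transcription factor genes rose at 8 of 17 members and fell at 0, with a median of 0.77. ERF1, a direct target of EIN3, was at 0.342 and 0.207 CPM untreated and at 9.07 and 9.01 CPM treated, a rise of 5.02 ± 0.42 (adjusted p = 6.4e-08). ERF11, an ERF repressor, rose by 4.14 ± 0.3 and ERF2 by 2.76 ± 0.22. ORA59, an activator of defence genes, went from 9.24 and 7.31 CPM to 26.3 and 33.1 CPM. The EDF/RAV group of ethylene-induced repressors held TEM1, which rose by 1.3 ± 0.14, and EDF3, which rose by 1.59 ± 0.15.

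Genes of ethylene synthesis moved in both directions. ACC synthases make the precursor ACC and ACC oxidases turn it into ethylene, and of the 15 such genes and regulators tested, out of 16 listed, 5 rose and 3 fell. The ACC synthase gene ACS9 had 0.0489 and 0 CPM untreated and 11.9 and 11 CPM treated, a ratio of reads of 456 with a 95% interval of 126 to 3770. Its relative ACS5 fell from 12.5 and 9.54 CPM to 0.444 and 0.225 CPM, a change of -5.03 ± 0.27 (adjusted p = 2.9e-10). Among the oxidases ACO1 rose by 2.37 ± 0.1. EOL2, which with ETO1 directs the breakdown of ACC synthases, fell by 0.75 and ETO1 by 0.29, and the call of ETO1 was lost without any 1 of the 4 libraries.

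**Figure D1:**
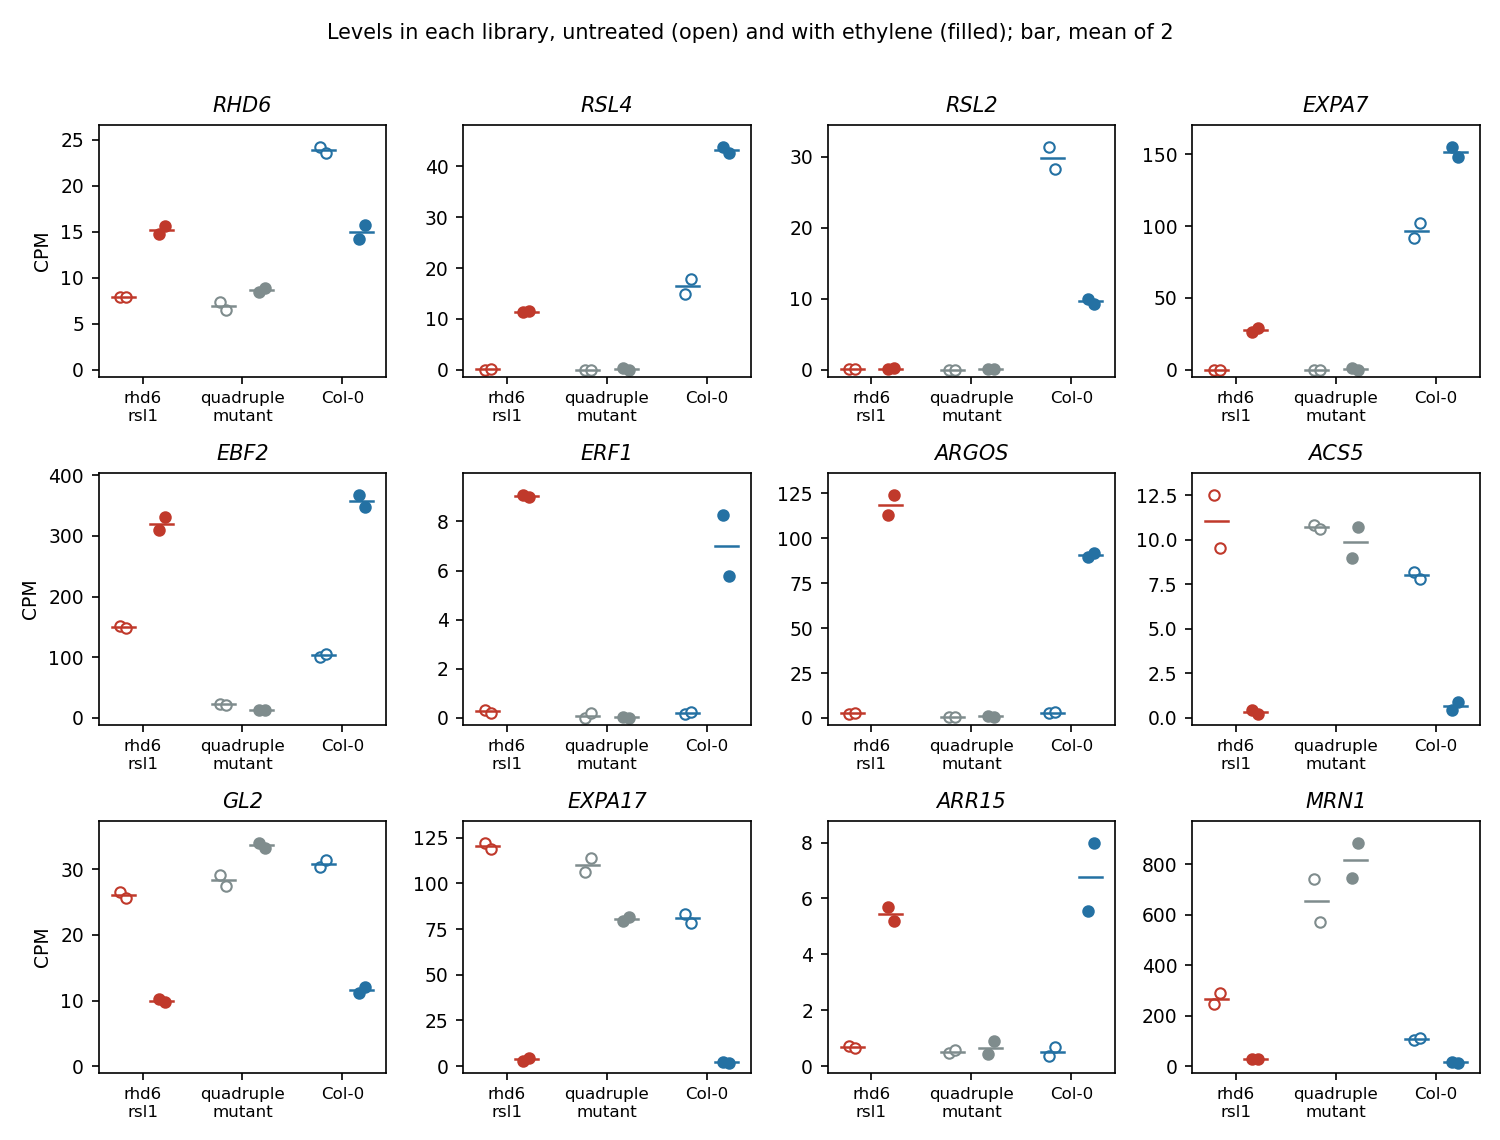
CPM in each library (linear axes from 0) for 12 genes in rhd6rsl1, the quadruple mutant and Col-0, untreated (open) and with ethylene (filled), with a bar at the mean of 2 libraries. RSL4 and EXPA7 rise in treated rhd6rsl1 to 11.3 and 11.6 CPM and to 26.4 and 28.9 CPM, below untreated Col-0, while RSL2 stays near 0.

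Root hair genes that were silent or nearly so in untreated rhd6rsl1 came on with ethylene. Among hair transcription factor genes 6 of the 9 tested, out of 10 listed, rose and 1 fell. RSL4 had 0 and 0.156 CPM untreated and 11.3 and 11.6 CPM treated, a rise of 7.18 ± 0.47 (adjusted p = 3e-09). Its treated level was 69.5% of the mean of untreated Col-0, which was 16.4 CPM. LRL3, a bHLH factor that acts in hair development, rose by 6.68 ± 0.3 from 0.196 and 0.0259 CPM to 11.7 and 12.2 CPM, and LRL1 and LRL2 rose by 1.1 ± 0.087 and 0.52 ± 0.09. RSL5 had no read untreated and 0.998 and 0.901 CPM treated, at least 25.2-fold higher when 3 reads are set as the floor over both untreated libraries. RSL2, as given above, stayed near 0. The zinc finger gene ZFP2 went from 0 reads to 15.2 and 14.7 CPM, at least 396-fold, and it was at 0 in untreated Col-0 too. ZFP5, a positive regulator of hair initiation, fell by 1.2 on the log2 scale.

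Genes of the hair wall rose at 12 of 15 members and fell at 1, with a median log2 fold change of 5.77, or 5.56 with unread genes at their bound. EXPA7, a root hair expansin that loosens the wall, had 0 and 0.0518 CPM untreated and 26.4 and 28.9 CPM treated, a ratio of reads of 1100 with a 95% interval of 304 to 9070. The proline-rich wall protein genes PRP1 and PRP3 went from 0.0489 and 0.0518 CPM to 42.3 and 35.5 CPM and from 0.293 and 0.467 CPM to 50.2 and 55.4 CPM. LRX1, an extensin-like protein of the hair wall, rose by 6.01 ± 0.56 and the xyloglucan-modifying enzyme gene XTH14 by 7 ± 0.6. XTH12 and XTH13 rose as well, but they are near-identical in sequence and their reads may be shared. All these genes had both treated libraries above both untreated ones, which again describes these genes only.

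The wall list also held members that did not follow. The peroxidase gene PRX57 fell from 298 and 286 CPM to 81 and 99.7 CPM, a change of -1.69 ± 0.11 (adjusted p = 3.1e-09). PRX44 was at 24.4 and 23 CPM untreated and 21.9 and 25.8 CPM treated, and LRX2 at 55.8 and 60.4 CPM untreated and 49 and 47.9 CPM treated; neither passed the test. Summed over the 15 wall genes the level was 381 and 372 CPM untreated and 374 and 388 CPM treated, against 2950 and 3240 CPM in untreated Col-0. PRX57 held 298 and 286 CPM of the untreated sums and 81 and 99.7 CPM of the treated ones. Its fall thus offset the rises of other members in these sums. In whole-root RNA a smaller number of hair-forming cells and less RNA per cell cannot be told apart.

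Of 13 root hair specific (RHS) genes 11 rose and 1 fell. RHS12, a pectin methylesterase gene, had no read untreated and 12.1 CPM in both treated libraries, at least 322-fold higher. RHS18, a peroxidase gene, had a ratio of reads of 341 with an interval of 116 to 1650. RHS8 went from 0 and 0.104 CPM to 8.26 and 6.62 CPM. RHS16 was at 0.489 and 0.467 CPM untreated and 0.776 and 1.1 CPM treated and rose by 0.96 ± 0.29, far below untreated Col-0 at 54.5 and 61.7 CPM. RHS17 fell by 0.74. The change of RHS17 was not called without replicate 1 of the treated (adjusted p = 0.27) or of the untreated libraries (adjusted p = 0.15). That of RHS16 was not called without treated replicate 2 (adjusted p = 0.14), without either untreated library or in the fit of rhd6rsl1 alone.

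Among 27 genes of hair growth 9 rose and 12 fell, with a median log2 fold change of -0.17. COW1 rose from 1.42 and 1.19 CPM to 18.5 and 14.7 CPM, a change of 3.67 ± 0.22 (adjusted p = 1.2e-09). The receptor-like kinase gene CAP1 had no read untreated and 9.93 and 7.97 CPM treated, at least 237-fold higher. The kinase gene RHS10 rose by 3.82 ± 0.15 and ROPGEF3, an activator of ROP GTPases, by 1.68 ± 0.19. RHD2, the NADPH oxidase of hair tips, was at 46.3 and 44.1 CPM untreated and fell by 0.31, a call lost without any 1 of the 4 libraries, with both other scalings, with the first transcript model and in DESeq2. The actin gene ACT2, used in hairs and elsewhere, fell from 1160 and 1180 CPM to 662 and 637 CPM, and UGE4, which supplies UDP-galactose for wall polymers, fell by 1.33. Without replicate 1 of the untreated libraries 8 of the 27 were called higher and 7 lower.

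**Figure D2:**
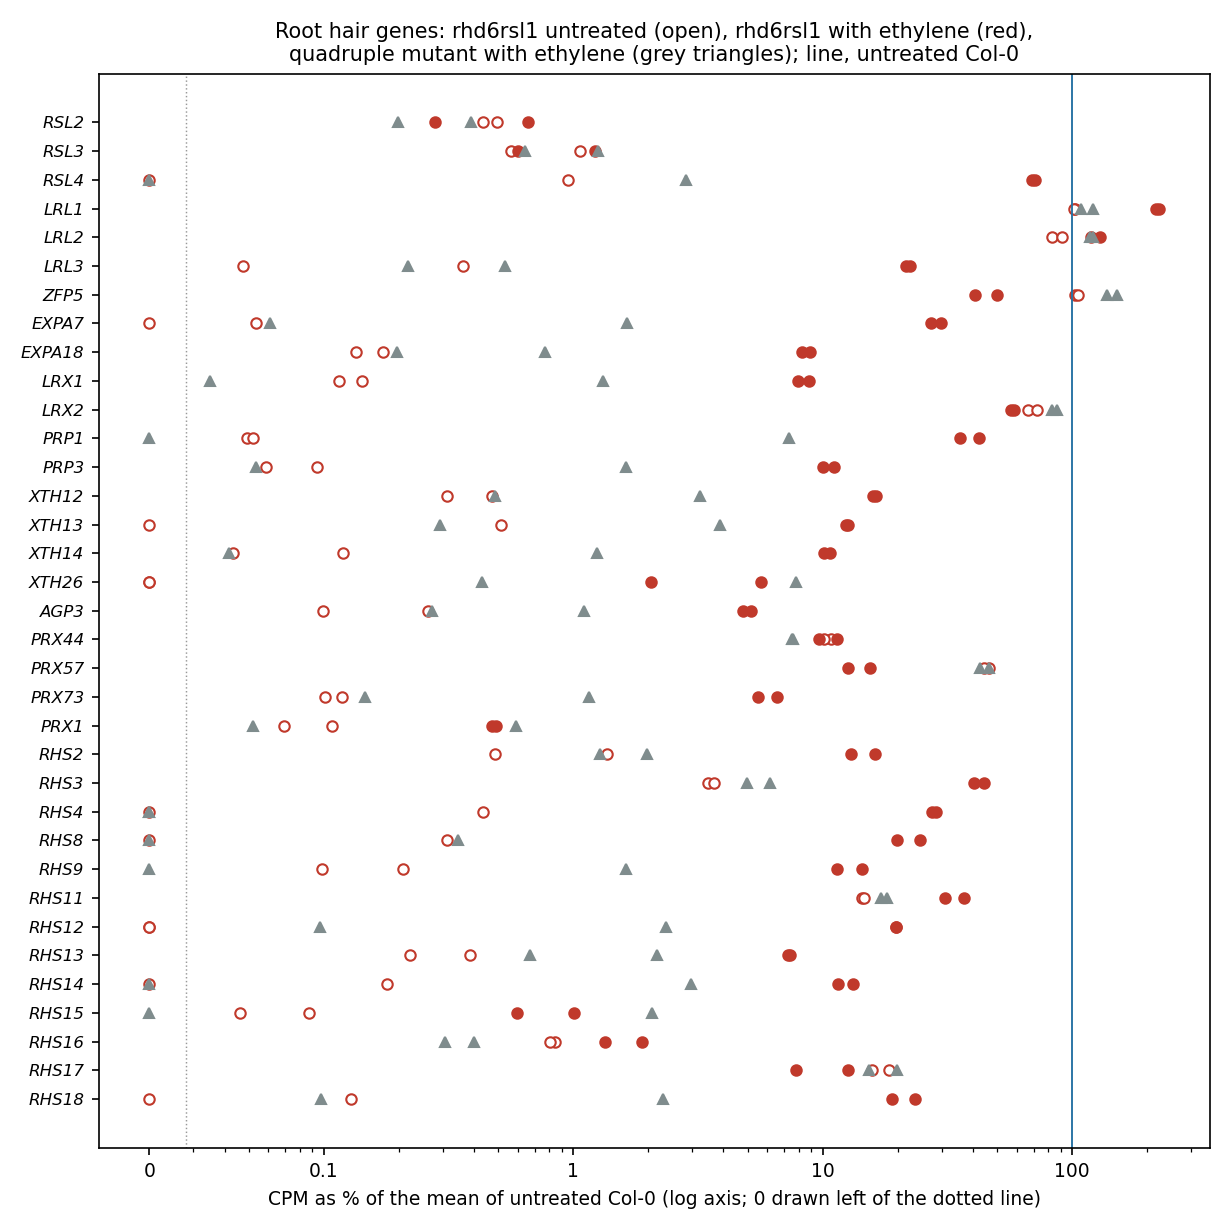
Level of root hair regulator, wall and RHS genes with at least 1 CPM in untreated Col-0, as % of the untreated Col-0 mean (log axis, 0 drawn at the left edge), for each library of untreated rhd6rsl1, treated rhd6rsl1 and the treated quadruple mutant. RSL4 reaches 69.5% of untreated Col-0, and the median wall gene reaches 10.5%.

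Set against untreated Col-0, which carries the same file letter as treated rhd6rsl1, the hair lists differed in the level they reached. Over the 15 wall genes the treated level in rhd6rsl1 was 0.482 to 57.7% of untreated Col-0, with a median of 10.5%, where the untreated median had been 0.129%. Over the 13 RHS genes the range was 0.801 to 42.4% with a median of 14.6%, against 0.216% untreated. Wall and RHS genes thus remained below untreated Col-0 at every member. The 7 hair transcription factor genes with at least 1 CPM there ranged from 0.47 to 220% with a median of 45.4%, against 0.811% untreated. The 27 hair growth genes had a median of 61.9% untreated and 44.1% with ethylene, with a range of 9.54 to 120% in the latter. By a rule of at most 3 reads in both untreated libraries together and at least 1 CPM in each treated library, 32 loci were switched on in rhd6rsl1 and 8 were switched off. Of the 32, 22 were at or above 1 CPM in both untreated Col-0 libraries, among them EXPA7, RHS12 and CAP1, and 10 were below it in both, among them ZFP2 and ACS9. In both treated libraries of the quadruple mutant 28 of the 32 were below 1 CPM. The 32 were picked by their levels in rhd6rsl1, and the same shares were not taken over other loci nearly unread there. These counts therefore describe the 32 loci only.

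The 12 largest rises were ZFP2, RHS12, EXPA7, AT4G08400, MOP10, PRP1, ACS9, EXT13, RHS18, AT2G34910, GH9C1 and EXT6. Extensins and proline-rich wall proteins made up several of them. EXT13, an extensin-like gene, went from 0.122 and 0.441 CPM to 103 and 92 CPM. AT4G08400, annotated as a proline-rich extensin-like protein, went from 0.0489 and 0.0518 CPM to 53 and 49.3 CPM, and EXT6 from 0.196 and 0.259 CPM to 46.1 and 41.3 CPM. GH9C1, an endoglucanase-type hydrolase, rose by 7.75 ± 0.32 and MOP10, annotated as a pollen allergen and extensin family protein, had a ratio of reads of 857 with an interval of 237 to 7080. Extensin genes share repeats, so their reads may be split among relatives.

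**Figure D3:**
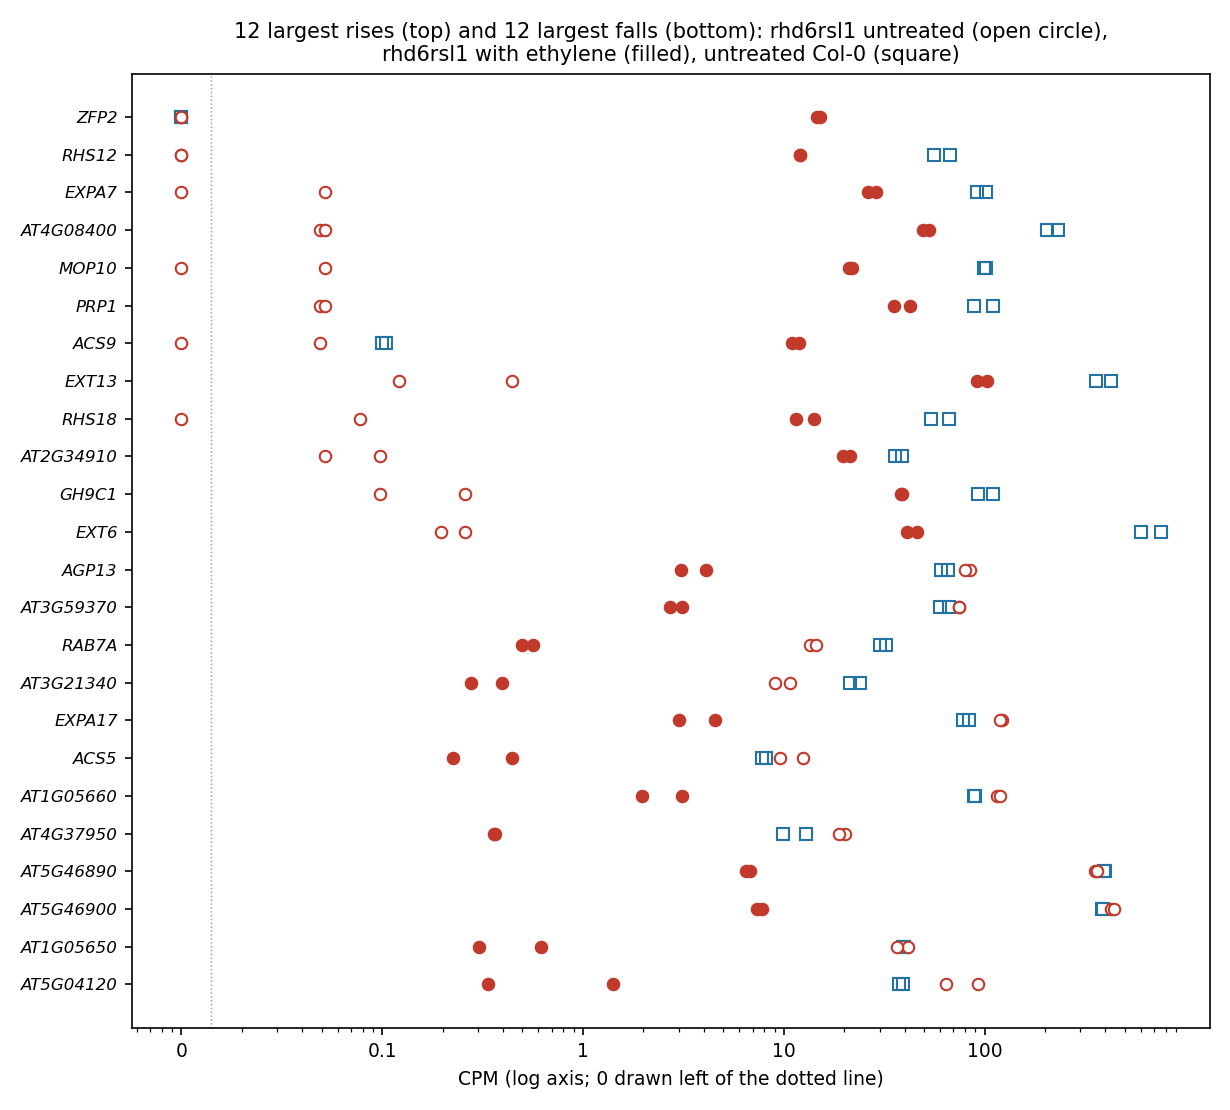
CPM in each library (log axis, 0 drawn at the left edge) of the 12 largest rises and 12 largest falls in rhd6rsl1 with a mean of at least 5 CPM, with untreated Col-0 as squares. The rises start near 0 and end below untreated Col-0 except in ZFP2 and ACS9, and the falls start between 9.07 and 441 CPM.

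The naming rule needs a mean of at least 5 CPM, so the falls it names start from well expressed genes by construction. AT5G46900 and AT5G46890, annotated as lipid-transfer-like proteins, went from 428 and 441 CPM to 7.35 and 7.83 CPM and from 354 and 363 CPM to 6.46 and 6.76 CPM. These neighbours are similar in sequence, so their reads may be shared. AT1G05650, annotated as pectin lyase-like, fell by 6.39 on the log2 scale, from 41.4 and 36.5 CPM to 0.305 and 0.62 CPM, and AT1G05660 of the same family fell by 5.53. The phosphoglycerate mutase family gene AT5G04120 went from 92.8 and 64.1 CPM to 1.41 and 0.338 CPM, the lowest log2 fold change of the named genes at -6.47 ± 0.32 (adjusted p = 8.6e-11). EXPA17, an expansin of lateral root emergence, fell from 122 and 119 CPM to 3.02 and 4.53 CPM, and the arabinogalactan protein gene AGP13 fell by 4.52. The other large falls were AT4G37950, a rhamnogalacturonate lyase family gene, ACS5, the kinase family gene AT3G21340, the GTPase gene RAB7A and AT3G59370.

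Most of the expansin and XTH genes listed outside the hair wall list fell. Of 10 other expansin and XTH genes 8 fell and 1 rose, with a median of -1.18. XTH21 went from 58.3 and 58.9 CPM to 2.91 and 3.15 CPM, a change of -4.27 ± 0.18 (adjusted p = 1.2e-11), and XTH17 from 219 and 234 CPM to 69.7 and 73.2 CPM. XTH19 rose by 0.34 ± 0.09. Aquaporins, the water channels of the plasma membrane and vacuole, fell at 9 of 16 members and rose at 1, with a median of -0.63. PIP2;7 fell from 829 and 844 CPM to 243 and 216 CPM and PIP1;2 from 1810 and 1810 CPM to 758 and 794 CPM. The member that rose was the vacuolar TIP1;2, by 0.34 ± 0.1, and without replicate 2 of the untreated or of the treated libraries no member rose.

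Suberin genes fell at 6 of 7 members, with a median of -1.36 and no rise. ABCG6, a transporter of suberin precursors, went from 40.5 and 33 CPM to 6.79 and 10.1 CPM, a change of -2.12 ± 0.28 (adjusted p = 1.4e-05). GPAT5, an acyltransferase of suberin synthesis, fell by 1.52 and the fatty acid hydroxylase gene CYP86A1 by 1.36. The Casparian strip genes of the same cell layer were mixed: among 9 endodermis genes 2 rose and 3 fell, with CASP2 up by 0.44 ± 0.11 and CASP5 down at -0.71 ± 0.14. Genes for the triterpenes thalianol and marneral fell at 4 of 5 members, with a median of -1.76. MRN1, the marneral synthase, fell from 246 and 289 CPM to 28.2 and 27.7 CPM, and THAS, the thalianol synthase, from 203 and 174 CPM to 54.6 and 56.5 CPM.

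Genes that set epidermal cell fate moved in both directions. Of 13 patterning genes 4 rose and 4 fell, with a median of -0.08. GL2, which represses hair fate in non-hair cells, fell from 26.5 and 25.6 CPM to 10.2 and 9.72 CPM, a change of -1.39 ± 0.087 (adjusted p = 1.6e-09). WER, MYB23 and GL3, which act upstream of GL2 or with it, fell by 0.86, 0.76 and 1.01. CPC, a mobile promoter of hair fate, rose by 0.53 ± 0.14, a call lost without untreated replicate 2 (adjusted p = 0.06), and JKD, which acts from the cortex on epidermal patterning, by 0.61 ± 0.09. Without that library 2 of the 13 rose.

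**Figure D4:**
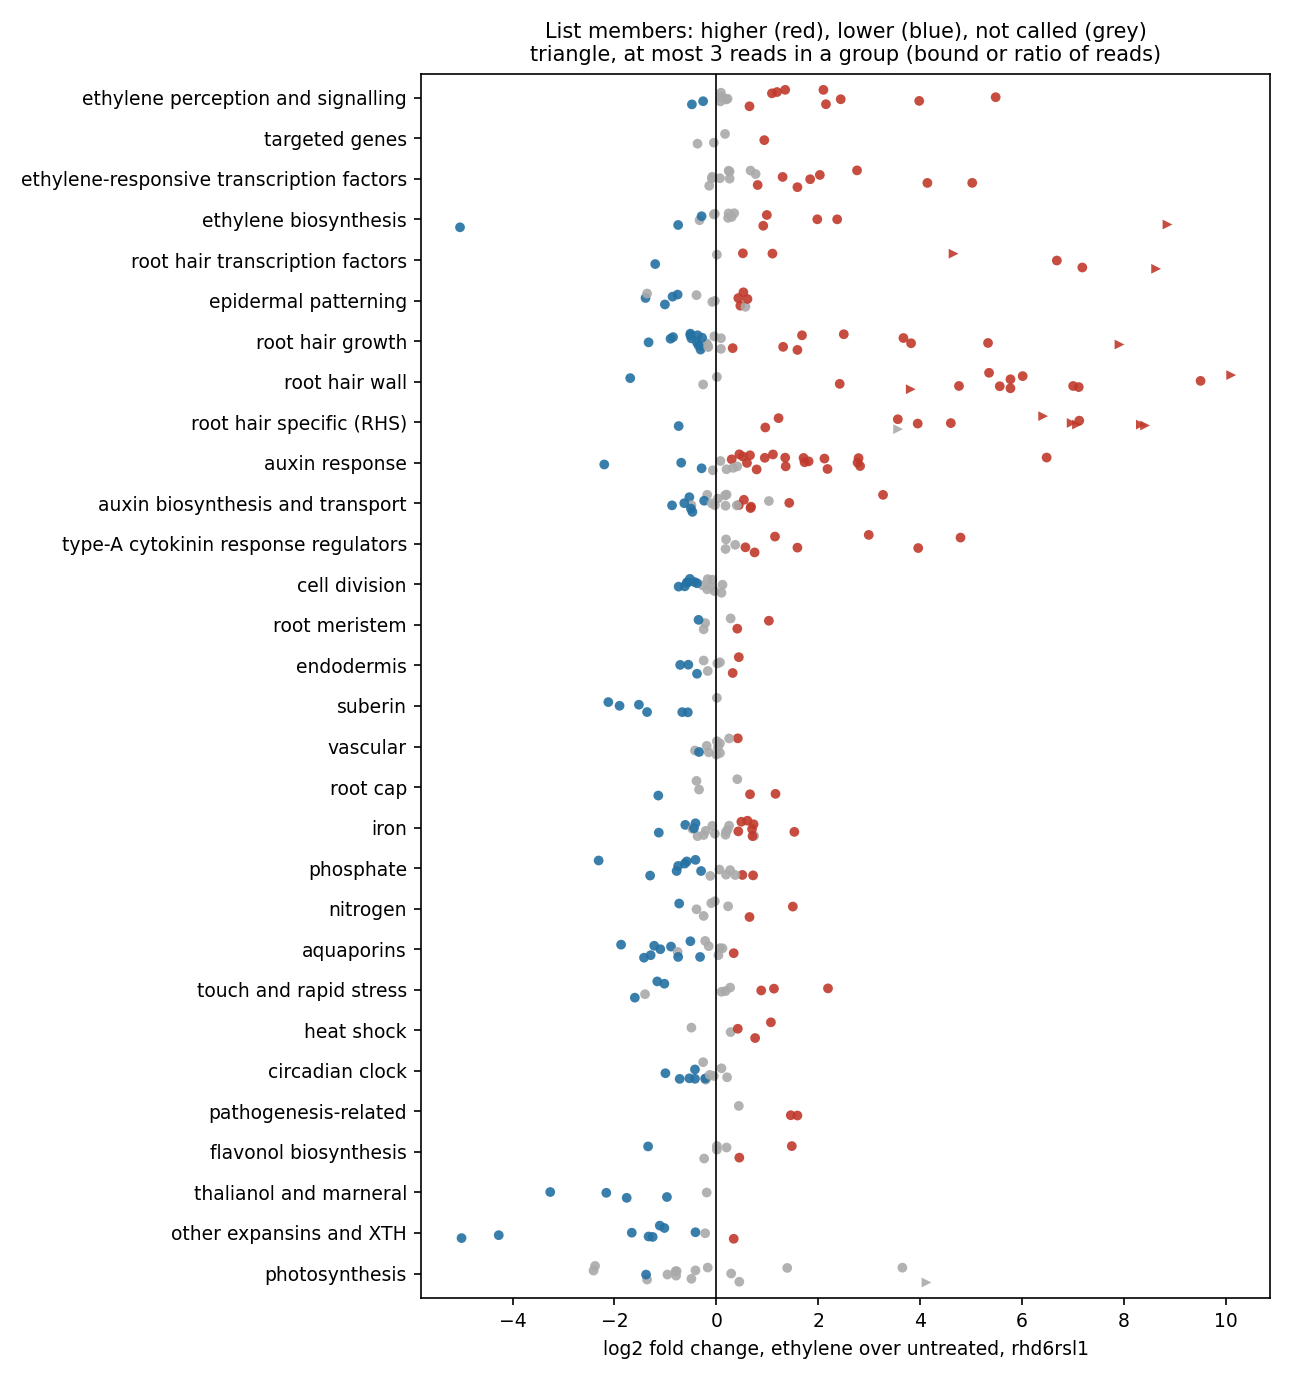
Log2 fold change with ethylene in rhd6rsl1 for each tested member of the 30 gene lists, coloured by call, with the median of all loci as a vertical line; triangles are genes with at most 3 reads in a group, drawn at their bound or ratio of reads. Most hair wall and RHS genes lie to the right of that line, and suberin, triterpene and other expansin and XTH genes lie mostly to the left.

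Auxin response genes rose at 19 of 27 members and fell at 3, with a median of 0.79. IAA1, an early auxin-induced repressor, went from 5.65 and 6.04 CPM to 44.1 and 38.2 CPM, a rise of 2.82 ± 0.13 (adjusted p = 4.9e-11). IAA2 rose by 1.81 ± 0.1, and the auxin-conjugating enzyme genes GH3.5 and GH3.2 by 2.18 ± 0.11 and 1.71 ± 0.13. GH3.17 fell from 103 and 105 CPM to 23.4 and 21.8 CPM. Of 22 genes of auxin synthesis and transport tested 6 rose and 6 fell, with 3 falls without treated replicate 2. YUC9, an auxin synthesis enzyme, rose by 1.43 ± 0.16 and the kinase gene PID, which directs PIN transporters, from 1.47 and 2.31 CPM to 19.4 and 16.8 CPM. The import carrier gene LAX2 fell by 0.87 and the export carrier gene PIN2 by 0.5.

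Type-A response regulators, which are induced by cytokinin and damp its signal, rose at 7 of 10 members and fell at 0, with a median of 0.95. ARR15 went from 0.709 and 0.648 CPM to 5.68 and 5.18 CPM, a rise of 2.99 ± 0.31 (adjusted p = 8e-07), ARR16 rose by 3.96 ± 0.43 and ARR3 by 1.59 ± 0.11. Cell division genes fell at 7 of 15 members and rose at 0, with a median of -0.27, and 4 fell without replicate 2 of the untreated or of the treated libraries. Their falls were small: CDKB1;1, a mitotic kinase, went from 19.1 and 23.6 CPM to 13.5 and 12.1 CPM, and CYCB1;2, a mitotic cyclin, from 32.3 and 33.7 CPM to 23.8 and 22.2 CPM. Of 6 meristem genes 2 rose and 1 fell, with a median of 0.03. The meristem regulator PLT2 rose by 1.03 ± 0.18 and the ground tissue regulator SCR by 0.41 ± 0.083. Vascular genes passed the test at 2 of 11 members and root cap genes at 3 of 6.

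Nutrient genes gave mixed counts, where 18% of all loci rose and 21.5% fell. Of 22 iron genes 7 rose and 4 fell, and leaving out each of the 4 libraries in turn gave 3 to 5 rises and 1 to 2 falls. Of 15 phosphate genes 2 rose and 8 fell, with 4 falls without untreated replicate 1 and 5 without treated replicate 1. SQD2, which makes sulfolipid in place of phospholipid, went from 71.9 and 69.4 CPM to 30.2 and 27.1 CPM, a change of -1.3 ± 0.083 (adjusted p = 2e-09), and MGD2, a galactolipid synthase, fell by 2.31. The nitrate reductase gene NIA1 went from 58.5 and 57.6 CPM to 172 and 155 CPM, a rise of 1.5 ± 0.14, and the ammonium importer gene AMT1;1 fell by 0.73; of the 8 nitrogen genes tested 2 rose and 1 fell.

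Among stress and defence genes the calcium sensor TCH3 rose from 44.3 and 38.6 CPM to 189 and 189 CPM, a change of 2.19 ± 0.12 (adjusted p = 4.7e-10). Touch and rapid stress genes as a list rose at 3 and fell at 3 of 10 members, with ZAT12 down at -1.6 ± 0.27. The chitin-binding protein gene PR4 rose from 427 and 307 CPM to 981 and 1240 CPM and the osmotin gene OSM34 by 1.46 ± 0.2, out of 3 tested pathogenesis-related genes of 8 listed. Heat shock genes rose at 3 of 5 members tested. Clock genes rose at 0 and fell at 6 of 13, with 2 to 3 falls without any 1 of the 4 libraries. Flavonol genes rose at 2 and fell at 1 of 7, with the chalcone synthase gene CHS up by 1.48 ± 0.15. Photosynthesis genes fell at 1 of 16 members, and in a fit of the 4 rhd6rsl1 libraries alone 10 of the 15 then tested fell and 2 rose.

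The response was then compared with that of the quadruple mutant, which carries mutations of EIN3 and EIL1 as well as RHD6 and RSL1. The letters of the file codes run the same way in both genotypes, so an additive difference between them cancels. The difference of responses passed the test at 3959 loci (17.8%), 1536 more positive in rhd6rsl1 (6.89%) and 2423 more negative (10.9%), with a median of -0.0128 over all loci. The quadruple mutant had 5323 loci called for ethylene (23.9%), but 523 at 2-fold or more (2.34%). The quadruple mutant had 11.5% of loci called higher and 12.4% lower. In both genotypes 1213 loci rose, which is 30.2% of the rises in rhd6rsl1 and 47.3% of those in the quadruple mutant. Falls in both numbered 1535, which is 32% and 55.7% of the falls. The responses have no library in common, but the letters run the same way in both. A letter difference would therefore add to the shared calls, and its part in them was not tested.

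Ethylene signalling genes were more positive in rhd6rsl1 at 9 of 17 members, with a median difference of 1. EBF2 rose in rhd6rsl1 and fell in the quadruple mutant, from 23.4 and 22 CPM to 12.6 and 12.8 CPM, a difference of 1.94 (adjusted p = 4.3e-08). ETR2 was at 1.54 and 1.81 CPM in the untreated quadruple mutant and 1.86 and 1.12 CPM in the treated one, a difference of 2.32. Auxin response genes were more positive at 17 of 27 members and more negative at 2, suberin genes more negative at 6 of 7 (3 without treated rhd6rsl1 replicate 1), triterpene genes at 4 of 5 and other expansin and XTH genes at 6 of 10. GL2, at 29.2 and 27.5 CPM in the untreated quadruple mutant and 34 and 33.3 CPM in the treated one, had a difference of -1.64 (adjusted p = 3.7e-08).

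Hair wall genes were also called higher in the quadruple mutant, at 11 of 15 members, and for several of them its 2 treated libraries disagreed. Its treated replicates 1 and 2 had 1.59 and 0.0592 CPM of EXPA7, 7.31 and 0 CPM of PRP1 and 24 and 0 CPM of EXT6. Its untreated replicates had 0.0473 and 0.047 CPM, 0.0473 and 0 CPM and 0.189 and 0.047 CPM of these genes. Treated replicate 2 was thus near or below the untreated level for them. Treated replicate 1 is the library with 1680 CPM of photosynthesis transcripts. The difference passed the test as more positive in rhd6rsl1 at 2 of 15 wall genes and as more negative at 2. Without that replicate 10 were more positive, and without the other treated replicate 5. Without any 1 of the remaining 6 libraries 1 was. Of 13 RHS genes 6 were more positive and 1 more negative, and of 27 hair growth genes 7 were more positive and 8 more negative. LRL3 was at 0.29 and 0.118 CPM in the treated quadruple mutant, and its difference was 6.37 (adjusted p = 4.1e-05). For RSL4, at 0.464 and 0 CPM there, the difference did not pass (adjusted p = 0.074). It passed in edgeR with no filter on low counts (adjusted p = 0.00053) and in DESeq2 (adjusted p = 0.01). The RSL4 difference was 11.17 without replicate 1 of the treated quadruple mutant, which leaves 0 CPM there, and 4.01 without replicate 2. Without replicate 2 of untreated rhd6rsl1 it was 9.55.

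The naming rule leaves out genes with overlap between groups, so larger differences from the quadruple mutant can go unnamed. GH9C1 had a difference of 6.97, but its levels in the quadruple mutant overlapped, at 0.142 and 0.094 CPM untreated and 0.406 and 0 CPM treated. The most positive differences named were in AT5G04960, an invertase or pectin methylesterase inhibitor family gene, the peroxidase family gene AT1G49570 and ARGOS. Next came the carbonic anhydrase gene BCA3, the stachyose synthase gene STS and the acyltransferase family gene AT2G39980. AT1G49570 went from 12.3 and 11.4 CPM to 380 and 412 CPM in rhd6rsl1 and was at 0.331 and 0.423 CPM untreated and 0.667 and 0.444 CPM treated in the quadruple mutant, a difference of 4.51 (adjusted p = 1.1e-06). AT2G39980 went from 6.63 and 5.44 CPM to 427 and 477 CPM, against 1.68 and 2.23 CPM to 10.4 and 5.62 CPM. The most negative named were AT1G05650, AT5G46890, AT5G46900, the amino acid transporter family gene AT3G54830, AT5G04120 and RAB7A. AT5G46900 was at 397 and 450 CPM in the untreated and 549 and 552 CPM in the treated quadruple mutant, a difference of -6.22 (adjusted p = 2.4e-11). AT5G04120 fell in both, to 32.2 and 38.3 CPM in the quadruple mutant.

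**Figure D5:**
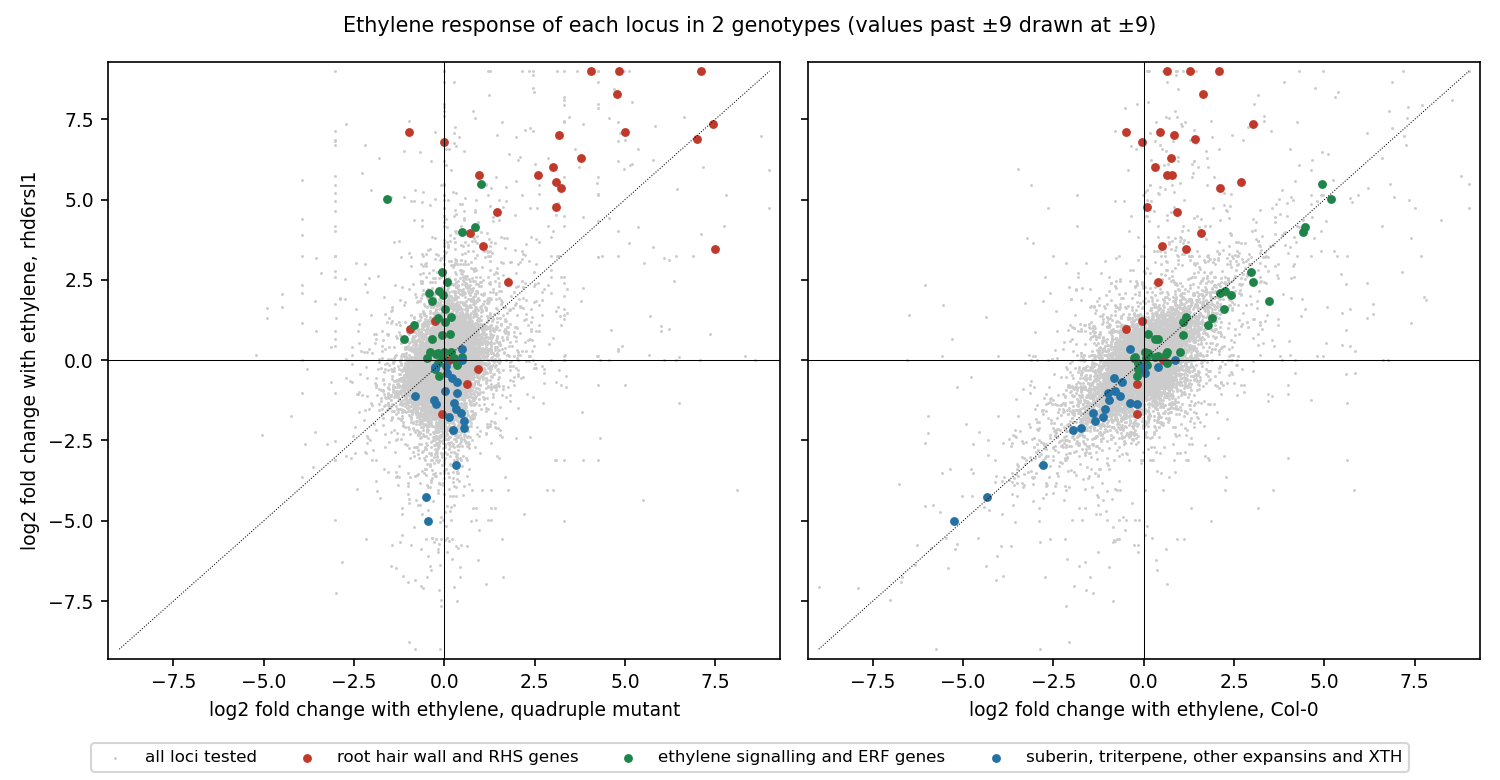
Log2 fold change with ethylene in rhd6rsl1 against that in the quadruple mutant (left) and in Col-0 (right) for all 22304 loci tested; the dotted line marks equal responses, and fitted values of genes with few reads in a group depend on the fit. Most ethylene signalling and ERF genes lie near the vertical axis on the left and near the dotted line on the right, and the hair wall and RHS genes plotted lie above the dotted line on the right, except PRX44, PRX57, LRX2 and RHS17.

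Against Col-0 the file letters run in opposite directions, so an additive difference between them is doubled, not cancelled. The difference of responses passed the test at 4015 loci (18%), 1916 more positive in rhd6rsl1 (8.59%) and 2099 more negative (9.41%), with a median of -0.0171 over all loci. Col-0 itself had 6609 loci called (29.6%), with 13.7% higher and 15.9% lower. Rises in common numbered 1514, which is 37.7% of those in rhd6rsl1 and 49.5% of those in Col-0, and falls in common 2138, which is 44.5% and 60.3%. Leaving out 1 library moved this count: without replicate 1 of untreated Col-0 the difference passed at 2229 loci, without replicate 1 of untreated rhd6rsl1 at 2465 and without replicate 1 of treated rhd6rsl1 at 2564.

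Hair wall and RHS genes differed from Col-0 in most members. Wall genes were more positive in rhd6rsl1 at 11 of 15 and more negative at 2, and RHS genes more positive at 11 of 13. Of 27 hair growth genes 8 were more positive, 4 more negative and 15 did not pass, and of 9 hair transcription factor genes 4 were more positive and 5 did not pass. These are differences of log2 fold changes and not of CPM. In Col-0 the wall genes summed to 2950 and 3240 CPM untreated and 4920 and 4390 CPM treated. In rhd6rsl1 they summed to 381 and 372 CPM untreated and 374 and 388 CPM treated, where the fall of PRX57 offset the rises of other wall genes. The RHS genes summed to 550 and 620 CPM untreated and 1160 and 1060 CPM treated in Col-0. In rhd6rsl1 the RHS sums were 9.61 and 9.28 CPM untreated and 79.1 and 78.4 CPM treated. RSL4 went from 14.9 and 17.9 CPM to 43.8 and 42.7 CPM in Col-0, a difference of 5.79 (adjusted p = 8.5e-06), and its treated level in rhd6rsl1 was below that of untreated Col-0. LRL3 went from 57 and 51.9 CPM to 45.5 and 39.9 CPM in Col-0, a difference of 7.03. RHD6, which rose in rhd6rsl1 and fell in Col-0, had a difference of 1.61 (adjusted p = 1.6e-06), and RSL1, which fell in Col-0 from 5.86 and 5.84 CPM to 1.09 and 1.75 CPM, of 1.67. PRX57, at 615 and 672 CPM untreated and 591 and 527 CPM treated in Col-0, had a difference of -1.49.

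Of 17 ethylene signalling genes 2 were more positive than in Col-0, 2 were more negative and 13 did not pass, with a median difference of -0.09. Without any 1 of the 8 libraries 0 to 1 were more positive. EBF2 went from 101 and 106 CPM to 367 and 347 CPM in Col-0, and its rise was smaller in rhd6rsl1, with a difference of -0.69 (adjusted p = 0.0022). ORA59 started at 9.24 and 7.31 CPM in rhd6rsl1 and at 1.74 and 2.23 CPM in Col-0, and its difference was -1.62. Of 15 cell division genes 14 fell in Col-0, and the difference was positive at 5 and negative at 0; without replicate 1 of untreated rhd6rsl1, treated rhd6rsl1 or treated Col-0, or replicate 2 of untreated Col-0, 1 was positive, and without either remaining untreated library 3 were.

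The most positive differences from Col-0 by the naming rule were in AT2G47540, RHS12, AT5G43230, EXPA7, AT4G08400 and ROPGEF12, which had 0 to 0.0518 CPM in the untreated rhd6rsl1 libraries. AT2G47540, a pollen allergen and extensin family gene, had no read there and 6.68 and 7.24 CPM with ethylene, at least 184-fold higher, against 64 and 65.2 CPM untreated and 66.3 and 73.6 CPM treated in Col-0. ROPGEF12, an activator of ROP GTPases, had none and then 5.6 and 3.8 CPM, against 8 and 8.18 CPM and then 22.8 and 21.5 CPM in Col-0. The most negative were AT3G28865, AT3G21340, AT3G50130, PUX3, RAB7A and AT2G23880. RAB7A fell from 13.5 and 14.5 CPM to 0.499 and 0.563 CPM in rhd6rsl1 and from 30 and 32.2 CPM to 16.4 and 13.8 CPM in Col-0, a difference of -3.67 (adjusted p = 9.1e-09), and in the quadruple mutant it was between 14.6 and 16.8 CPM in all 4 libraries. For AT3G28865, PUX3 and AT2G23880 the libraries with the letter S lay above those with Z within each of rhd6rsl1, the quadruple mutant and Col-0. In ein3eil1 the letters overlapped for AT3G28865, at 95.3 and 53.7 CPM with Z and 88.9 and 140 CPM with S, and for PUX3, at 358 and 214 CPM with Z and 281 and 446 CPM with S. For AT2G23880 S lay above Z in ein3eil1 too, at 10.8 and 16.4 CPM against 9.06 and 7.91 CPM. AT3G28865 fell from 277 and 291 CPM to 49.7 and 22.4 CPM in rhd6rsl1, fell from 271 and 295 CPM to 51.8 and 33.5 CPM in the quadruple mutant and rose from 34.6 and 48.8 CPM to 126 and 143 CPM in Col-0. PUX3, encoding a UBX domain protein, went from 830 and 815 CPM to 193 and 113 CPM in rhd6rsl1 and from 145 and 196 CPM to 408 and 438 CPM in Col-0. For these 3 loci the letter and the treatment cannot be told apart.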

How the data were processed

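Each of the 16 files gives, per transcript model, a read count and an RPKM value. The read counts were deposited by the authors, and per the file headers they are unnormalised and come with a library total. The RPKM values, also deposited by the authors, were checked against counts, lengths and totals and not used in any test. BWA 0.7.7 and TAIR10 are named in the submitters' processing notes; the counting tool, strand setting and treatment of reads shared by models could not be learned from the labels, headers or notes, so near-identical and antisense genes are uncertain. All 16 totals were even, and whether both mates of a pair were counted is not given.

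Summing 39640 models per locus gave 33518 loci, 4626 of them with several models; 32709 loci matched a RefSeq table by locus tag and took names from it. Groups came from the labels, with 2 replicates each; p-values measure the spread between these libraries. Loci passing edgeR 4.0.16's filterByExpr (22304) were fitted with TMM scaling and its quasi-likelihood test (R 4.3.3), 8 group means over 16 libraries, with Benjamini-Hochberg adjustment over all loci tested and a call at 0.05. The common biological coefficient of variation was 0.0938. Standard errors are the fold change divided by the root of F. The difference of responses was tested as an interaction. Where a group had 0 reads the fold was set against 3 reads over the group, and with 1 to 3 reads the ratio of reads has an exact 95% interval; both cover counting error only.

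The members and gene lists were chosen with earlier results of these data known. Genes named are members of the 30 lists, plus by rule the 12 largest called rises and falls with a mean of at least 5 CPM and no overlap between groups, and the 6 most positive and negative differences likewise. Alternatives were DESeq2 1.42.0, other scalings, no filter, the compared groups alone, the first transcript model, a replicate block and leaving out each library. The fit was tested on simulated data. One gene is not reported here.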

Additional observations from a re-analysis of the deposited data

Results flagged for a closer look

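Ethylene responses that differed between genotypes were flagged by the test of the difference itself, in edgeR's quasi-likelihood fit with 2 libraries a group. The response of rhd6rsl1 differed from that of the quadruple mutant at 3959 loci and from that of Col-0 at 4015 loci. The values below are log2 differences, rhd6rsl1 minus the other genotype.

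Against the quadruple mutant the difference was 4.98 for AT5G04960, 4.51 for AT1G49570, 4.47 for ARGOS, 4.32 for BCA3, 4.29 for STS and 4.19 for AT2G39980. LRL3 had 6.37, ETR2 2.32 and EBF2 1.94. It was -6.27 for AT1G05650, -6.23 for AT5G46890, -6.22 for AT5G46900, -6.09 for AT3G54830, -5.15 for AT5G04120, -4.86 for RAB7A and -1.64 for GL2.

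Against Col-0 the difference was 9.22 for AT4G08400, 7.03 for LRL3, 5.79 for RSL4, 1.67 for RSL1 and 1.61 for RHD6. Genes with at most 3 reads in a group have no fitted difference printed, and their adjusted p was 1.8e-07 for AT2G47540, 3.3e-05 for RHS12, 3.9e-07 for AT5G43230, 2.8e-07 for EXPA7 and 2.1e-05 for ROPGEF12. Negative differences were -4.67 for AT3G28865, -4.29 for AT3G21340, -4.06 for AT3G50130, -3.73 for PUX3, -3.67 for RAB7A, -3.13 for AT2G23880, -1.62 for ORA59, -1.49 for PRX57 and -0.69 for EBF2. The letters of the file codes are opposed between these genotypes, and their part in these values was not tested.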

How the results depend on the processing

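The count for ethylene in rhd6rsl1 stayed within 1.5 times of 8817 in every alternative run, from 8410 to 9176 under other settings and from 6479 to 6886 without 1 library, while the share that rose went from 45.5% to 52.7% with library totals. The difference from the quadruple mutant stayed within the same limit of 3959, from 3082 to 4854 under other settings and from 2818 to 5490 without 1 library. The difference from Col-0, 4015 loci, ran from 3772 to 4655 under other settings but from 2229 to 3401 without 1 library. The replicate numbers did not pair the rhd6rsl1 libraries, with a correlation of -0.065 between deviations of same-numbered libraries; with a replicate block the counts were 8614, 3806 and 3772. For the genes named, log2 fold changes that changed sign belonged to genes that had not passed the test. Of 476 values for the 119 genes named in rhd6rsl1, 21 lost their call without 1 library, and of 832 under other settings 8 did; these belonged to EIN4, RAN1, ETO1, CPC, RHD2, RHS16, RHS17 and TIP1;2. The RSL4 difference from the quadruple mutant gained a call under 5 settings and LRX2 in rhd6rsl1 under 1. Leaving out 1 library at a time gave -0.10 to 0.05 for EIN3, -0.68 to 0.54 for RSL2 and -0.07 to 0.16 for PRX44. The cause was not tested. With 2 libraries a group, small changes are limited by replicate number, and genes near 0 by depth.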
